A study of Mus musculus with 7 samples.

Results

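The genes described here act in signalling by myostatin, activin and TGF-beta, and were taken from a list of 10 gene symbols: Mstn, Inhba, Fst, Acvr1b, Acvr2a, Acvr2b, Tgfb1, Tgfb2, Tgfbr1 and Smad7. A gene was kept where its symbol stood in a row of the deposited expression table, which has 11642 rows. Of the 10 listed genes 8 had a row, while Mstn (myostatin) and Acvr2b were not analysed here, so the values below are on activin and TGF-beta genes and hold none for myostatin itself. The cells were C2C12, an established murine myoblast line whose cells fuse to myotubes once serum is withdrawn, and the 4 samples with siRNA were labelled as day 2 of differentiation. The 2 control samples received a scramble siRNA (si-SCR), and the 2 samples called si-SMaRT received one siRNA, number 1, against lnc-SMaRT, a long non-coding RNA of skeletal muscle. The study describes the pairs as independent cell populations, and its question in this comparison was how the transcriptome responds to depletion of lnc-SMaRT during myogenesis. A pull-down of RNA with probe set #1 against lnc-SMaRT, one with LacZ probes and the input were sequenced as 1 library each, from C2C12 cells with no siRNA named in the labels.

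Activin, myostatin and TGF-beta are secreted dimers that bind a type II receptor on the cell surface, which then recruits and phosphorylates a type I receptor. The type I receptor phosphorylates Smad2 and Smad3, which join Smad4 and act on genes in the nucleus, and BMP ligands use a parallel route through Smad1 and Smad5. Myostatin and activin are known to limit muscle mass, and TGF-beta holds back the differentiation of myoblasts in culture.

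The siRNA is shown first, because every comparison below rests on it and because its guide strand can pair by its seed with other mRNAs. The oligonucleotide list of the study gives it as a single sequence, taken here as the sense strand. The guide strand was not listed and was written here as the full reverse complement. The seed and its matches below rest on that choice, since a guide that starts at another base has another seed. The sense strand matched 1 annotated transcript in GENCODE M21, Gm14635 (lnc-SMaRT), at bases 878 to 898, in exon 4 on the minus strand of chrX:12340293-12340313 (GRCm38). Written 5′ to 3′, capitals mark the seed of the guide strand, its bases 2 to 8, and the letters in a target that pair with it.
siRNA sense strand: gagaagcagaacaAACAGAUa
siRNA guide strand: uAUCUGUUuguucugcuucuc
Inhba 3′UTR: caagaccuaaugaAACAGAUg
Acvr2a 3′UTR: agugaccuuuaagAACAGAUu
Tgfb2 3′UTR: aaugggauauaagAACAGAUg
The target letters AACAGAU, searched on the mRNA strand only, occurred once in the longest annotated 3′UTR of 3 of the 8 genes, at chr13:16027317-16027323 on the plus strand in Inhba, at chr2:48901029-48901035 on the plus strand in Acvr2a and at chr1:186622883-186622889 on the minus strand in Tgfb2. Among 9644 tested genes with a 3′UTR, 11.7% held the same letters. A match of letters is a description and not a measured site.

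Lnc-SMaRT had 19.1 and 15.9 RPKM (reads per kilobase of gene model, scaled to library size) in si-SCR 1 and 2, against 2.88 and 3.65 RPKM in si-SMaRT 1 and 2, so the labels and the targeted RNA went together in every sample. Its log2 fold change was -2.39 (SE 0.28, adjusted p = 0.000882). Effective library sizes lay between 11291255 and 14312935 reads. Markers of myotubes were present in all samples and summed to 16143 and 15090 RPKM in si-SCR and to 10068 and 7319 RPKM in si-SMaRT, and 12 of 13 had a log2 fold change below 0, with 0 past an adjusted p of 0.05, where 0.325% of all genes passed as lower, and 8 below an unadjusted p of 0.05, where 9.09% of all genes were. Of these markers, 3 of 13 passed as lower with voom (0.64% of all genes), 4 of 12 with the GC trend removed (2.99%), 8 of 13 on leaving out si-SMaRT 1 (14.9%) and 4 of 13 on leaving out si-SMaRT 2 (3.51%). Markers of undifferentiated myoblasts summed to between 419 and 501 RPKM in the 4 samples. A large part of this sum was Itga7, with 200 and 236 RPKM in si-SCR and 231 and 122 RPKM in si-SMaRT. The groups did not overlap for 5 of 11 markers with si-SMaRT higher and for 1 with si-SMaRT lower, against 20.2% and 20.4% of all genes. Of the 11, 1 passed, the cyclin Ccnd1 (log2 fold change 1.36, adjusted p = 0.0356), where 0.18% of all genes passed as higher. Of 14 markers of other cell types, the only one with a row was Cd68, at 0.788 to 1.13 RPKM. In such bulk samples, fewer cells of a type and less RNA per cell cannot be told apart, and the part of the myotube markers in the values below was not tested.

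In si-SCR cells the most abundant of the 8 genes was Fst, the secreted antagonist, and the receptors Acvr2a and Tgfbr1 followed. Per length, Fst stood at 28.9 ± 2.92 RPKM (SD, n = 2), above 83.6% of the rows of the table. Acvr2a stood at 9.07 RPKM and Tgfbr1 at 7.99 RPKM, near the middle of all rows. Over the 4 samples the ranges of this pair overlapped, although Acvr2a was the higher in each of the 4. Below them came Tgfb2 at 4.35 RPKM and Inhba at 3.09 RPKM. The 3 lowest were Tgfb1 at 1.53 RPKM, Smad7 at 1.08 RPKM and Acvr1b at 0.935 RPKM, each above 10.9% to 17.4% of the rows. In this lowest group neighbours were not separated beyond their spread, since Tgfb1 was above Smad7 in 2 of 4 samples, and the ranges of Smad7 and Acvr1b overlapped although Smad7 was the higher in 4 of 4. The plot of levels by sample shows this order and which genes differed between replicates.

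**Figure D1:**
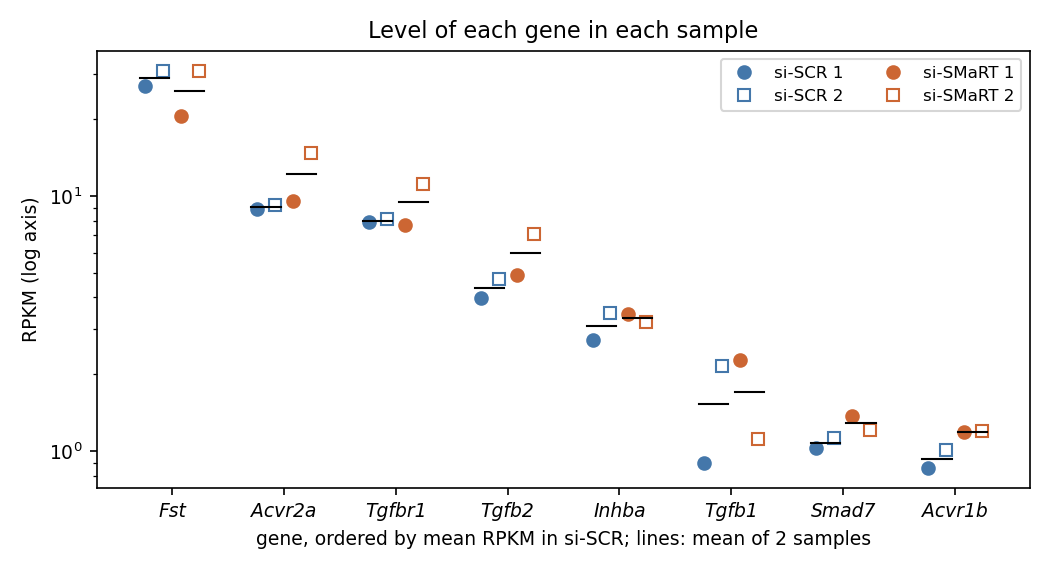
RPKM (log axis) of the 8 genes in si-SCR 1 and 2 and si-SMaRT 1 and 2, ordered by the mean of si-SCR, with a line at the mean of each group of 2 samples. Fst is highest at 20.5 to 30.9 RPKM, Acvr2a, Tgfbr1 and Tgfb2 have si-SMaRT 2 above the other 3 samples, and Tgfb1 has its replicates far apart in both groups.

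Fst encodes follistatin, which binds activin and myostatin outside the cell and keeps them from their receptors, and it lies at chr13:114452290-114458951 on the minus strand (GRCm38, as all positions of genes here). It had 26.8 and 30.9 RPKM in si-SCR and 20.5 and 30.8 RPKM in si-SMaRT. The low sample was si-SMaRT 1, and si-SMaRT 2 lay within the range of the controls. With a log2 fold change of -0.20 (SE 0.28, 95% interval -0.79 to 0.40, adjusted p = 0.893), a difference between the groups was smaller than the spread between samples could resolve.

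Inhba encodes the beta A subunit of activin A, the ligand that follistatin binds, and lies at chr13:16011851-16031621 on the plus strand. Its values were 2.71 and 3.47 RPKM in si-SCR and 3.44 and 3.21 RPKM in si-SMaRT. The si-SMaRT samples fell inside the range of the controls. Inhba had a log2 fold change of 0.11 (SE 0.29, 95% interval -0.50 to 0.73, adjusted p = 0.946). The reads behind these values were at least 68, 97, 77 and 91 in the order given, since the read steps give a model of 1980 bases or a multiple of it, against 6390 bases in GENCODE M21.

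Within each sample, Inhba stood at a small share of the level of its antagonist. The ratio of Inhba to Fst in RPKM was 0.101 and 0.112 in si-SCR and 0.168 and 0.104 in si-SMaRT. The high value was that of si-SMaRT 1, the sample in which Fst was low, and the groups overlapped (exact permutation test, two-sided, p = 0.667). With 2 samples against 2, such a test cannot go below 0.333.

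Tgfb1 and Tgfb2 encode TGF-beta 1 and TGF-beta 2, ligands that are secreted in a latent complex. Tgfb1, at chr7:25687002-25705077 on the plus strand, had 0.896 and 2.16 RPKM in si-SCR and 2.29 and 1.12 RPKM in si-SMaRT. One control and one depleted sample were low and the others were high, so the groups overlapped fully. For Tgfb1 the log2 fold change was 0.19 (SE 0.41, 95% interval -0.67 to 1.04, adjusted p = 0.937), the widest interval of the 8 genes.

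The difference between the si-SCR replicates of Tgfb1, 1.18 on the log2 scale, was larger than that of 99.8% of all tested genes and of 99.7% of the 1427 genes of like level. The reads behind these control values were at least 29 and 78, with 95% counting intervals of 0.600 to 1.29 RPKM and 1.71 to 2.69 RPKM. The intervals did not meet, and thus the control samples differed in Tgfb1 beyond counting error. Such intervals cover counting error only, because the reads carried no molecular identifiers.

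Tgfb2, at chr1:186622792-186705989 on the minus strand, had 3.98 and 4.72 RPKM in si-SCR and 4.89 and 7.09 RPKM in si-SMaRT. Both si-SMaRT samples were above both controls, with si-SMaRT 1 close to si-SCR 2 and si-SMaRT 2 apart. Tgfb2 had the lowest p of the 8 genes, and its log2 fold change was 0.43 (SE 0.29, 95% interval -0.18 to 1.05, limma adjusted p = 0.719). The ratio of Tgfb1 to Tgfb2 was 0.225 and 0.457 in si-SCR and 0.467 and 0.158 in si-SMaRT (exact permutation test, two-sided, p = 1.0), so that Tgfb1 was the lower in all 4 samples and no order between the groups was seen.

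Among the receptors, Acvr2a is a type II receptor that binds activin and myostatin, at chr2:48814109-48903269 on the plus strand. It had 8.92 and 9.21 RPKM in si-SCR and 9.52 and 14.8 RPKM in si-SMaRT. The controls lay close together and both si-SMaRT samples were above them, yet only si-SMaRT 2 stood apart. Acvr2a had a log2 fold change of 0.38 (SE 0.29, 95% interval -0.22 to 0.99, adjusted p = 0.764). Orc4, a gene with a row of its own, overlaps Acvr2a on the opposite strand. The libraries were made with a stranded kit and aligned as stranded, but the strand setting of the counting was not given in the sources used here.

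Tgfbr1 (ALK5) is the type I receptor for TGF-beta, at chr4:47353222-47414931 on the plus strand. Its values were 7.90 and 8.09 RPKM in si-SCR and 7.69 and 11.2 RPKM in si-SMaRT. As for Acvr2a, the controls were nearly equal and si-SMaRT 2 was high, but here si-SMaRT 1 was the lowest sample. In limma, Tgfbr1 had a log2 fold change of 0.21 (SE 0.28, 95% interval -0.39 to 0.81, adjusted p = 0.883).

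Acvr1b (ALK4) is the type I receptor for activin, at chr15:101174067-101213684 on the plus strand. It had 0.860 and 1.01 RPKM in si-SCR and 1.184 and 1.203 RPKM in si-SMaRT, the lowest level of the 3 receptors. Both si-SMaRT samples were above the controls, but the 95% counting intervals of all 4 overlapped, from 0.634 to 1.14 RPKM in si-SCR 1 to 0.948 to 1.51 RPKM in si-SMaRT 2. The log2 fold change was 0.33 (SE 0.32, 95% interval -0.36 to 1.01, adjusted p = 0.84), and the reads numbered at least 48, 63, 59 and 76. The ratio of Acvr1b to Tgfbr1 was 0.109 and 0.125 in si-SCR and 0.154 and 0.108 in si-SMaRT (exact permutation test, two-sided, p = 1.0), so TGF-beta's type I receptor was the more abundant mRNA in every sample.

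Smad7 is the inhibitory Smad that TGF-beta itself induces and that blocks and degrades type I receptors, at chr18:75367529-75395935 on the plus strand. It had 1.03 and 1.13 RPKM in si-SCR and 1.37 and 1.21 RPKM in si-SMaRT. Both si-SMaRT samples were above both controls by a small margin. The log2 fold change was 0.23 (SE 0.32, 95% interval -0.44 to 0.91, adjusted p = 0.888). The samples held 59, 72, 70 and 78 reads, and the 95% counting intervals of all 4 overlapped, so the order of the samples was not resolved at this depth.

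Taken as a list, 0 of the 8 genes passed an adjusted p of 0.05 in limma, where 0.505% of 11086 genes tested did (36 lower and 20 higher in si-SMaRT). None of the 8 was below an unadjusted p of 0.05 either, against 9.09% of all genes, and 0 of 8 passed with voom on the reads worked out from the RPKM steps, where 0.929% of all genes did. The log2 fold change was above 0 for 7 of 8 genes, against 52.3% of all genes, and their median was 0.22, against 0.02. Groups did not overlap for 4 of 8 genes, Tgfb2, Acvr2a, Acvr1b and Smad7, all higher in si-SMaRT, where 40.7% of all genes did not overlap and 20.2% did so with the higher values in si-SMaRT. For Acvr1b and Smad7 the counting intervals of all 4 samples overlapped, so their order was not resolved by the reads worked out. The intervals reached from -0.79 at the lowest to 1.05 at the highest, so changes within these bounds were not resolved for these genes.

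The si-SMaRT replicates decided what the fit showed for part of the list. In the study's read counts, si-SMaRT 1 lost a far larger share of pairs to the rRNA and tRNA filter than the other samples. Whether this bears on the differences between the si-SMaRT replicates was not tested. Without si-SMaRT 1, Acvr2a rose by 0.70 (adjusted p = 0.00675) and Tgfb2 by 0.70 (adjusted p = 0.0144) on the log2 scale, so that 2 of 8 genes passed, both higher, where 11.3% of all genes passed as higher. Without si-SMaRT 2, 0 of 8 genes passed, where 8.49% of all genes did, and the log2 fold change of Acvr2a was 0.07 and that of Tgfb2 0.17. In these fits the lone si-SMaRT sample is assumed to vary like the controls. The plot of fold changes by fit sets these values side by side.

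**Figure D2:**
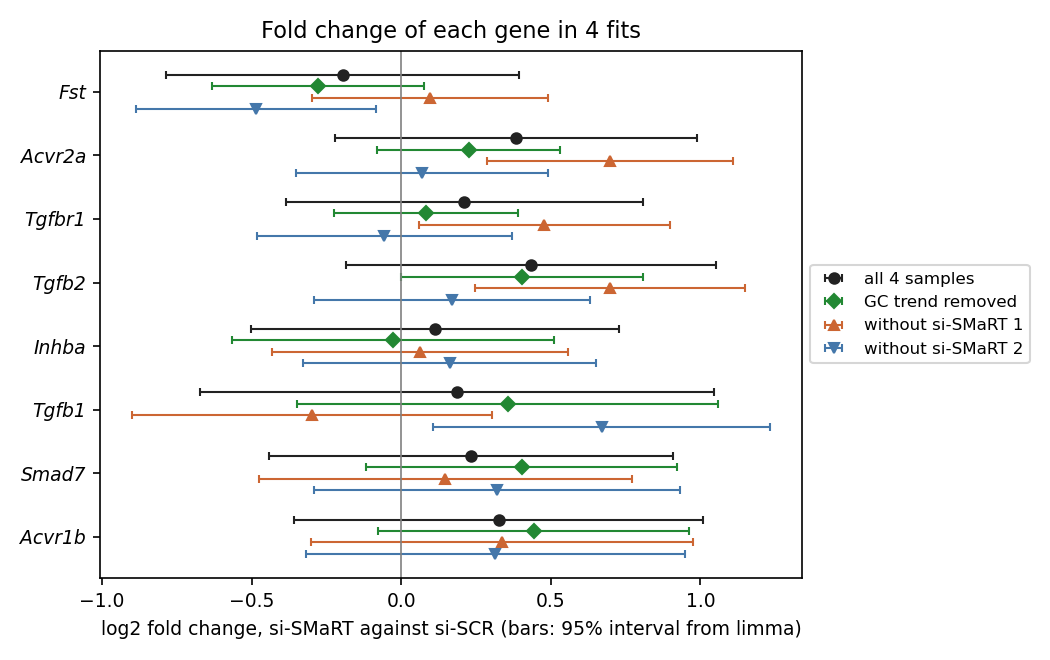
Log2 fold change of si-SMaRT against si-SCR for the 8 genes in 4 fits, with bars for the 95% interval from limma. The intervals from all 4 samples include 0 for every gene, and Acvr2a and Tgfb2 at 0.70 without si-SMaRT 1 lie to the right of their values without si-SMaRT 2, 0.07 and 0.17.

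The si-SMaRT replicates differed along the GC content of the genes, which bears on this list because its members span a wide range, from 39.9% in Acvr2a to 56.7% in Tgfb1. Over all genes the median difference of si-SMaRT 2 minus si-SMaRT 1 came to 0.55 (log2) for the genes of lowest GC (34.2% to 44.5%) and -0.68 among those with the highest (54.0% to 71.3%). In si-SCR 2 minus si-SCR 1 the trend was smaller and ran the other way, with medians of -0.11 and 0.16. Acvr2a (39.9%) and Tgfbr1 (42.3%) differed by 0.63 and 0.53 between the si-SMaRT replicates, close to the median of the genes of lowest GC. Fst (45.2%) and Tgfb2 (47.1%) differed by 0.58 and 0.53, well above the median of 0.16 for genes with a GC content of 44.5% to 49.1%. Tgfb1 differed by -0.97, as genes of high GC did, whereas Smad7, of nearly the same GC content (56.6%), differed by -0.17 and Inhba (41.4%) by -0.10. Whether GC content accounts for the differences of single genes was not tested.

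**Figure D3:**
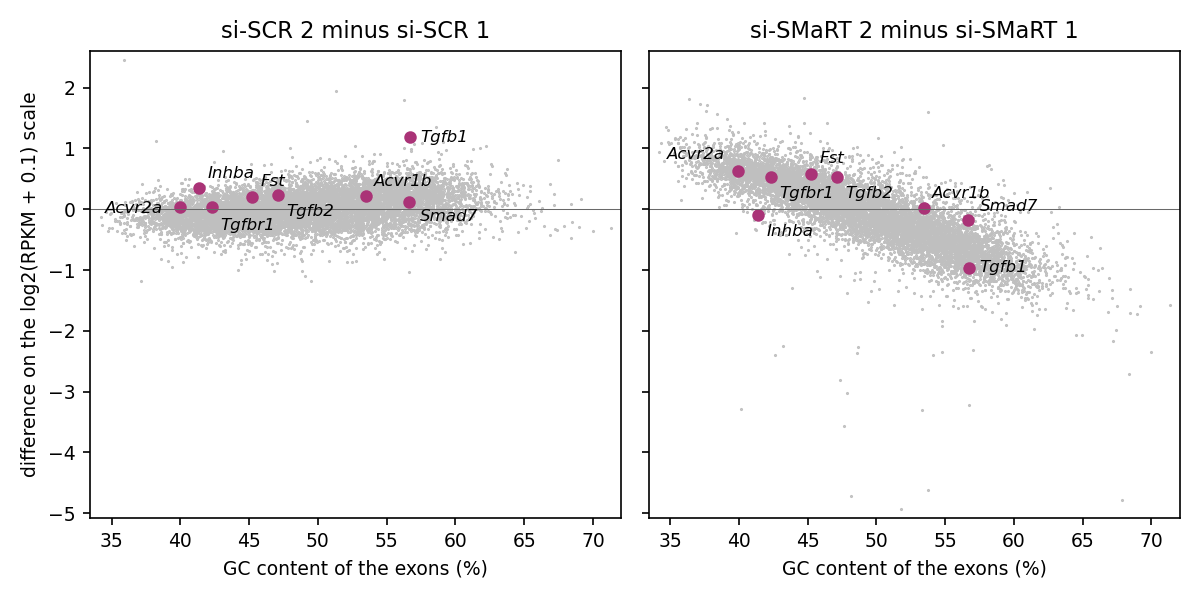
Difference between the replicates of a group on the log2(RPKM + 0.1) scale against the GC content of the exons (percent), for all tested genes with a GC value (grey points) and the 8 genes (labelled). The cloud rises slightly with GC in si-SCR (medians from -0.11 to 0.16) and falls from low to high GC in si-SMaRT (0.55 to -0.68), where Acvr2a stands at 0.63 and Tgfb1 at -0.97, and in si-SCR Tgfb1 stands above nearly all genes at 1.18.

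Once the dependence on GC content had been taken out of each sample, 0 of 8 genes passed, where 5.63% of 10018 genes did. The log2 fold change of Tgfb2 was then 0.40 (SE 0.18, 95% interval -0.0023 to 0.81, adjusted p = 0.2), that of Acvr1b 0.44 (adjusted p = 0.265) and that of Acvr2a 0.23 (adjusted p = 0.33). Fst stood at -0.28 (adjusted p = 0.305), and the 95% interval of each of the 8 genes included 0. The direction was the same as before for 7 of 8 genes, and Inhba turned to -0.03.

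The 3 genes whose pattern over the 4 samples was most like that of Tgfb2, by the root mean square distance of log2 values centred on the mean of each gene, were Mms22l (0.012), Chd1 (0.015) and Reep3 (0.021). Chd1 for example had 10.2 and 11.8 RPKM in si-SCR and 12.2 and 17.6 RPKM in si-SMaRT. Their GC content was 42.3% to 43.9%, below the 47.1% of Tgfb2, and 4 points say little about likeness.

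The other genes of the pathway were read from lists of ligands, extracellular regulators, receptors, Smads, intracellular regulators and response genes. Of 74 tested genes outside the 8, 2 passed, Bmp4 and Id3, both higher in si-SMaRT, where 0.18% of all genes passed as higher, and 0 passed as lower, where 0.325% did. Bmp4 encodes a BMP ligand and Id3 is a gene that BMP signalling induces. Other settings, given after the lists, also called genes of the activin and TGF-beta branch.

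Bmp4 had 0.213 and 0.127 RPKM in si-SCR and 0.916 and 0.911 RPKM in si-SMaRT. Its si-SMaRT samples were alike and well above the controls, which held at least 6 and 4 reads. The log2 fold change of 1.93 (SE 0.37, adjusted p = 0.0232) depended on the pseudocount, with 0.71 at a pseudocount of 1 and 2.40 at 0.01. Among 6 other ligands it was the only one that passed. Inhbb, the beta B subunit of activin B, had 6.07 and 7.18 RPKM in si-SCR and 16.1 and 10.1 RPKM in si-SMaRT (log2 fold change 0.94, adjusted p = 0.238). Its log2 fold change was 0.60 without si-SMaRT 1 and 1.27 without si-SMaRT 2. With the GC trend removed Inhbb passed (1.14, limma adjusted p = 0.00401), where 2.64% of all genes passed as higher. Gdf5, at or below 1.06 RPKM in all samples, had a log2 fold change of -0.94 (adjusted p = 0.36), and Tgfb3, the most abundant TGF-beta ligand mRNA here at 28.6 to 40.5 RPKM, had -0.15.

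Of 17 extracellular regulators 0 passed, and their median log2 fold change was 0.34. The highest was Grem1, a secreted BMP antagonist, with 2.04 and 1.77 RPKM in si-SCR and 4.44 and 5.39 RPKM in si-SMaRT (log2 fold change 1.32, adjusted p = 0.0542). Thbs1, thrombospondin 1, an activator of latent TGF-beta, had 97.9 and 144 RPKM in si-SCR and 300.3 and 242 RPKM in si-SMaRT (log2 fold change 1.18, adjusted p = 0.0854). In both genes the si-SMaRT samples were above the controls without overlap, as they were for 20.2% of all genes. The lowest was Chrd, chordin, another BMP antagonist, with 3.72 and 4.21 RPKM in si-SCR and 1.85 and 1.52 RPKM in si-SMaRT (log2 fold change -1.19, adjusted p = 0.0976). The latent TGF-beta binding protein Ltbp4 had -0.12 with replicates of si-SMaRT at 1.92 and 0.595 RPKM.

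All 6 other receptors tested had a log2 fold change above 0, against 52.3% of all genes, and 0 passed, with a median of 0.54. Tgfbr3 (betaglycan, the co-receptor of TGF-beta 2) had 0.85 (adjusted p = 0.429) and Bmpr1b 0.64 (adjusted p = 0.606), at 0.386 to 1.37 RPKM over both genes. The type I BMP receptors Acvr1 and Bmpr1a had 0.26 and 0.17. Of 6 other Smads 0 passed, with a median of 0.29. Smad3, which carries activin and TGF-beta signals, had 0.49 (adjusted p = 0.629), with its si-SMaRT samples at 22.3 and 17.3 RPKM above the controls at 12.3 and 15.7 RPKM. Its partner Smad2 had 0.00, and the BMP Smads Smad1 and Smad5 had 0.34 and 0.10.

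Of 20 intracellular regulators 0 passed, and they lay between -0.52 for Tab1 and 0.63 for the Smad repressor Ski. The next lowest was Skil at -0.21 and the next highest Dab2 at 0.58. Of 18 genes of the TGF-beta and activin response 0 passed, where 0.505% of all genes did. Below an unadjusted p of 0.05 in limma were 6 of the 18, against 9.09% of all genes. Cyr61 had 30.6 and 42.6 RPKM in si-SCR and 78.6 and 68.8 RPKM in si-SMaRT (log2 fold change 1.02, adjusted p = 0.137), Ctgf had 0.70 (adjusted p = 0.395), and at the other end Junb had -0.73 (adjusted p = 0.53) and Timp1 -0.60 (adjusted p = 0.499). Genes of this response stood on both sides of 0, with 11 above and 7 below, where 52.3% of all genes were above.

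Id3, an inhibitor of helix-loop-helix factors that BMP signalling induces, was the only one of 7 BMP response genes to pass. It had 2.91 and 3.20 RPKM in si-SCR and 12.3 and 7.26 RPKM in si-SMaRT (log2 fold change 1.60, SE 0.30, adjusted p = 0.0232). Its close relatives Id1 and Id2 had -0.01 and -0.58, so the Id genes did not share one direction, and Atoh8 had 0.81 (adjusted p = 0.379). Neither Bmp4 nor Id3 passed when either control sample was left out.

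The counts in the wider pathway, with 74 tested genes, also depended on the processing. With voom on the reads, 4 pathway genes passed as higher (Bmp4, Thbs1, Grem1 and Id3) and 1 as lower (Chrd), where 0.289% and 0.64% of all genes did. With the GC trend removed, 11 passed as higher and 2 as lower of 69 tested, where 2.64% and 2.99% of all genes did. The higher ones were Inhbb, Thbs1, Ltbp1, Dcn, Tgfbr2, Smad3 and Ski besides Bmp4, Grem1, Id3 and Atoh8, and the lower ones were Chrd and Postn. Inhbb (activin B), Tgfbr2 (the type II receptor for TGF-beta, 0.63, adjusted p = 0.0426) and Smad3 (0.60, adjusted p = 0.0454) belong to the activin and TGF-beta branch. The plot of pathway genes by role shows where the 8 genes stand among them.

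**Figure D4:**
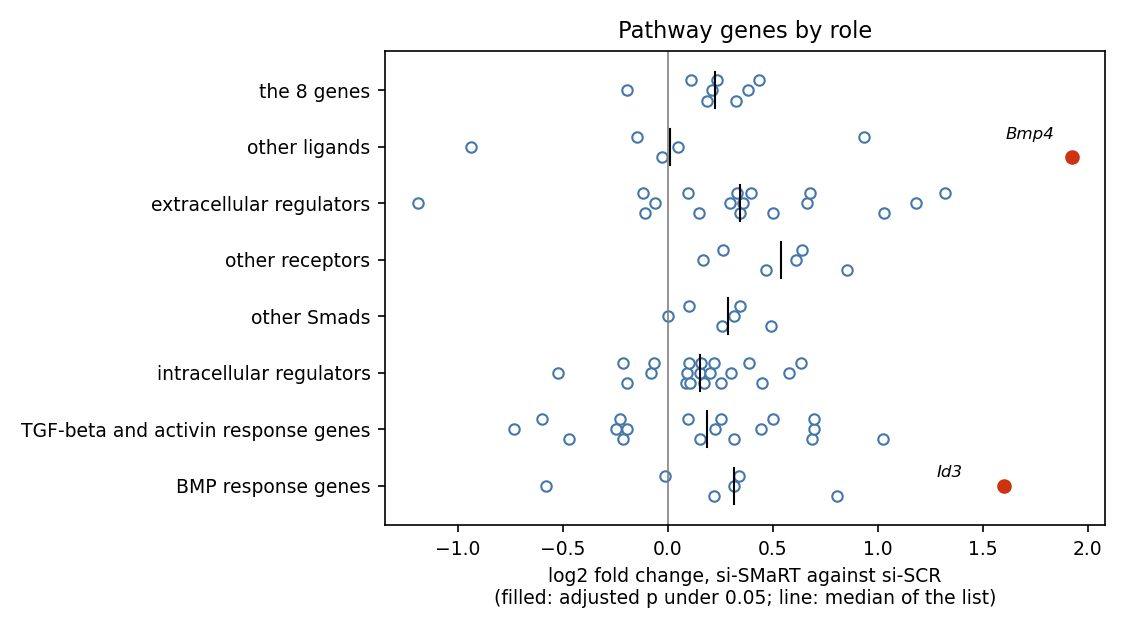
Log2 fold change of si-SMaRT against si-SCR for each tested gene (circles) by role in the pathway, filled where the adjusted p from limma is under 0.05, with a line at the median of each list. The 8 genes lie between -0.20 and 0.43 with a median of 0.22, and the filled circles are Bmp4 at 1.93 and Id3 at 1.60.

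The 3 genes with letters that pair with the seed of the siRNA, Inhba, Acvr2a and Tgfb2, had log2 fold changes of 0.11, 0.38 and 0.43. Over all genes the median log2 fold change was 0.12 with such letters in the 3′UTR and 0.00 without, and the 3′UTRs with them were longer (median 2591.5 against 1071.0 bases). This comparison was not matched for 3′UTR length or for GC content, so no conclusion about the seed is drawn from it. Among tested genes with a GC value, the median log2 fold change was 0.13 at the lowest GC content (34.2% to 44.5%). It was -0.14 at the highest (54.0% to 71.3%). Whether the seed of the siRNA lowered any of these mRNAs was not tested.

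In the pull-down, the lists of enriched regions were searched for the 10 listed genes, Mstn and Acvr2b included, by their gene spans. Of 345 peaks in the lnc-SMaRT pull-down and 336 in the LacZ pull-down, 0 overlapped one of these genes on the same strand by 1 base or more, while 5 peaks and 0 peaks lay on the gene of lnc-SMaRT itself. The lists hold only regions that passed the peak caller, from 1 library each and with no replicate, so that a gene without a peak is not shown to be unbound.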

How the data were processed

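Total RNA of C2C12 cells was sequenced from 2 si-SCR and 2 si-SMaRT samples, and pull-down RNA from 1 library each. The authors trimmed with Trimmomatic, discarded pairs matching rRNA or tRNA (Bowtie 2), aligned to GRCm38 with TopHat2 and Ensembl 77, counted with htseq-count (intersection-strict), removed genes of low CPM and deposited RPKM values scaled by TMM in edgeR. The deposited p-value of each peak came from Piranha in bins of 200 bases, for which the methods give the input as covariate for the LacZ pull-down and call the lnc-SMaRT pull-down against both the input and LacZ. Which of these the deposited lnc-SMaRT list holds is not given in the sources used here.

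The test was limma 3.58.1 (R 4.3.3, eBayes with trend) on log2(RPKM + 0.1). The 11086 genes whose mean RPKM reached 0.5 were tested, and Benjamini-Hochberg adjustment ran over all of them. Fold changes on this scale understate those of low genes. P-values measure the spread between these samples, which may be partly technical. Reads were worked out from the steps between the RPKM values of a gene for 11642 rows, with lengths of GENCODE M21 fixing 5904 of them; for the others the reads are lower limits, as for Fst, Inhba, Tgfb1 and Acvr1b. The reads in rows summed to 12763445 and 14087238 in si-SCR and 10807275 and 13736477 in si-SMaRT. GC content came from M21 and GRCm38, and its trend was removed per sample by loess (span 0.3). Fit and read recovery were tested on simulated data. Other steps ran in Python 3.11.15 with scipy 1.17.1, pandas 2.3.3, matplotlib 3.10.9 and numpy 2.4.6.

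The members and lists were chosen with earlier results of these data known. Besides the members, the genes named were those past the threshold, the 2 highest and the 2 lowest of each pathway list, lnc-SMaRT, and the 3 genes nearest to the member with the lowest p. Genes outside this rule, Ccnd1, Itga7, Cd68, Orc4, Ltbp1, Dcn, Tgfbr2 and Postn, were named after their values were seen. Alternatives were pseudocounts of 1 and 0.01, no filter and a mean RPKM of at least 5, quantile normalization, voom, an untrended prior variance, a block for the replicate number and omission of each sample in turn; removal of the GC trend and a crossed block were added after the values were seen. Sequences of proteins and promoters were not used here.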

Additional observations from a re-analysis of the deposited data

How the results depend on the processing

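Filters on low values, the untrended prior variance and the blocks leave each log2 fold change as it was, so its direction was fixed in advance there. In the main limma fit the lowest adjusted p of the 8 genes was 0.719, far from the threshold. A change of side was thus unlikely as long as all samples were kept. Within these limits, alternatives other than leaving out a sample kept direction and side in 75 of 76 values, the exception being Inhba with the GC trend removed (-0.026). Of the values from leaving out a sample 25 of 32 did so, and the ranges that crossed 0 were -0.058 to 0.28 for Inhba, -0.49 to 0.10 for Fst, -0.40 to 0.78 for Tgfb1 and -0.056 to 0.48 for Tgfbr1. The number of the 8 genes that passed ranged from 0 to 2 on leaving out a sample, and with a mean RPKM of at least 5 only 4 of them were tested.

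Over all genes, 56 passed (20 higher, 36 lower) and leaving out a sample gave 24 to 2908 (3 to 1253 higher, 20 to 1655 lower). Quantile normalization gave 37 (13 higher), voom 103 (32 higher, 71 lower) and removal of the GC trend 564 (264 higher, 300 lower). In the wider pathway 2 passed, both higher, and leaving out a sample gave 0 to 23 (0 to 20 higher, 0 to 7 lower). A mean RPKM of at least 5 gave 1 of 53 pathway genes, higher, where 0.218% of all genes passed as higher. Voom gave 5 pathway genes (4 higher, 1 lower), where 0.289% and 0.64% of all genes passed. Removal of the GC trend gave 13 (11 higher, 2 lower), where 2.64% and 2.99% of all genes passed. The causes of these differences were not tested.

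With the replicate number as a block, 96 genes passed (77 lower). The labels do not say that a number marks a shared culture, and over 11086 genes the deviations of same-numbered samples correlated at -0.36 (-0.19 with the GC trend removed). Pairing the numbers crosswise gave 487 genes (146 higher, 341 lower), which is 1.32% and 3.08% of all genes tested. Of 74 pathway genes it gave 8 (7 higher, 1 lower). Neither block changed a call of the 8 genes.

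Ranges on leaving out a sample also crossed 0 for Bmpr1a (-0.20 to 0.54), Id1 (-0.33 to 0.31), Ltbp4 (-0.89 to 0.65), Skil (-0.55 to 0.13), Smad2 (-0.21 to 0.22), Smad5 (-0.029 to 0.23) and Tgfb3 (-0.37 to 0.082). Removal of the GC trend turned Ltbp4 to 0.10, Smad2 to -0.081 and Id1 to 0.13, and quantile normalization turned Id1 to 0.0039. The ratios and the peak counts on these genes changed no order or count under their alternatives. The reads worked out numbered fewer than 100 per sample for Acvr1b, Smad7, Tgfb1 and Inhba, but only those of Smad7 are fixed, and the others are lower limits.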
